A study of Mus musculus with 14 samples.

Results

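The cells described here are the c-kit+ haematopoietic progenitors of the mouse yolk sac (YS) at embryonic day (E) 11, set against those of E10. They were chosen by sample label and column name, and they number 187 of the 1121 single cells in the series, with 46 cells at E11 and 141 at E10. The study asked how haematopoietic stem cells arise in the aorta, and the YS cells were collected as a reference population of haematopoietic stem and progenitor cells (HSPCs). Both YS samples came from wild-type C57BL/6 embryos, with 28 to 32 somite pairs at E10 and over 40 at E11. Cells were stained for c-kit after enzymatic digestion, sorted singly into plates and sequenced with CEL-Seq, a protocol that counts the 3′ ends of transcripts by unique molecular identifiers. By their column names the E10 cells form 2 sets, of 65 and 76 cells, and whether these are separate sorts or plates of 1 pool is not given. The labels name no embryo or litter, so each stage is 1 sample with no replicate check, and no test was made over cells.

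The yolk sac is the first blood-forming organ of the embryo. A primitive wave there gives red cells that carry embryonic globins, and a later wave of erythro-myeloid progenitors, which express *Kit*, *Cd34* and *Itga2b*, gives definitive red cells, megakaryocytes, mast cells, granulocytes and macrophages. These progenitors leave the yolk sac for the fetal liver around the stages sampled.

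Each E10 cell held 3000 transcripts and each E11 cell 5000, because the authors had drawn every cell of a table down to a common total. Genes detected per cell had a median of 1752 at E10 (1588 to 1924) and of 2162 at E11 (1828 to 2494), which became 1526 with E11 cells thinned to 3000 over all genes and 1774 over the shared genes. A level is the mean number of transcripts per cell at a depth of 3000. The 102 genes whose names start with *Rpl* or *Rps*, most of which encode ribosomal proteins while others, such as kinase genes and pseudogenes, do not, are in the E11 table and not in the E10 table, and they took 24.9% of the transcripts of E11 YS cells (16.7% to 31.7% per cell). The 19322 genes in both tables therefore summed to 2252 of 3000 transcripts at E11 and to 3000 at E10. Scaling E11 from 5000 to 3000 thus placed the median log2 ratio of all described genes at −0.46, and scaling over the shared genes placed it at −0.04. Log2 ratios of E11 against E10 are given as a pair, first from 5000 to 3000 and then, in parentheses, over the shared genes. "Higher" and "lower" are used of genes changed 2-fold or more on both scales. E11 levels are those scaled from 5000 to 3000, and over the shared genes they are 1.33 times as large. Ratios include a pseudocount of 0.1, and a gene was described if its level reached 0.5 at either stage. Intervals are exact 95% Poisson intervals for sums, exact Clopper-Pearson intervals for shares and conditional binomial intervals for ratios of sums, and they cover counting error only.

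At both stages the cells carried the transcripts that their label implies. All 9 markers fixed for c-kit+ progenitors had a transcript in some cell at E10 and at E11, with summed levels of 5.05 and 4.15 (5.53 over the shared genes). That bar is low, since 8 of 9 endothelial markers also met it at E11. At least 3 of the progenitor markers were found in 61.7% of E10 cells (53.1% to 69.8%) and in 69.6% of E11 cells thinned to 3000 transcripts (54.2% to 82.3%). *Kit*, the receptor used for the sort, had levels of 0.362 and 0.287, a log2 ratio of −0.25 (0.06). Its transcripts were found in 40 of 141 E10 cells and, with the shared genes thinned to 3000, in 15 of 46 E11 cells. *Cd34*, a sialomucin of progenitors and endothelium, had levels of 1.18 and 1.41, with a log2 ratio of 0.23 (0.62). The integrin gene *Itga2b*, which encodes CD41, had levels of 0.730 and 0.391 and a log2 ratio of −0.76 (−0.42). None of these 3 genes passed the fold on either scale. *Runx1*, the transcription factor required for definitive blood formation, had a log2 ratio of −0.29 (0.05), and *Ptprc*, which encodes the leukocyte antigen CD45, was rare at both stages, with levels of 0.0496 and 0.0783.

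In E11 YS cells the level was higher for the embryonic globins *Hbb-y* and *Hba-x* and for *Ifitm1*, *Sepp1*, *Ctla2a*, *Rasl2-9*, *Marcksl1*, *Lrrc58* and *B2m*. Lower at E11 were the mitotic kinesin gene *Kif11*, the centromere gene *Cenpf*, the nucleolar gene *Ncl*, the chemokine receptor gene *Cxcr2* and further genes of mixed function. *Ifitm1* and *Sepp1* passed the fold on the first scale only with their 2 highest cells included. Of 1369 described genes, 14 (1.02%) were 2-fold or more above E10 and 123 (8.98%) below it when E11 was scaled from 5000 to 3000. Over the shared genes, the split of 1535 described genes was 46 above (3.0%) and 36 below (2.35%). The 14 and the 36 passed the fold on both scales. Against each E10 set by itself, 12 genes (0.877%) were above and 84 (6.14%) below from 5000 to 3000, and 36 (2.35%) were above and 28 (1.82%) below over the shared genes. Between the E10 sets, 4 of 1497 genes (0.267%) passed the fold. Relative to set 1, *Eif3m* and *Gfer* were above and *Rmi2* and *Trim12c* below in set 2. The E10 sets share a table and a sample, so they do not measure the spread between samples, and stage and table cannot be told apart.

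**Figure D1:**
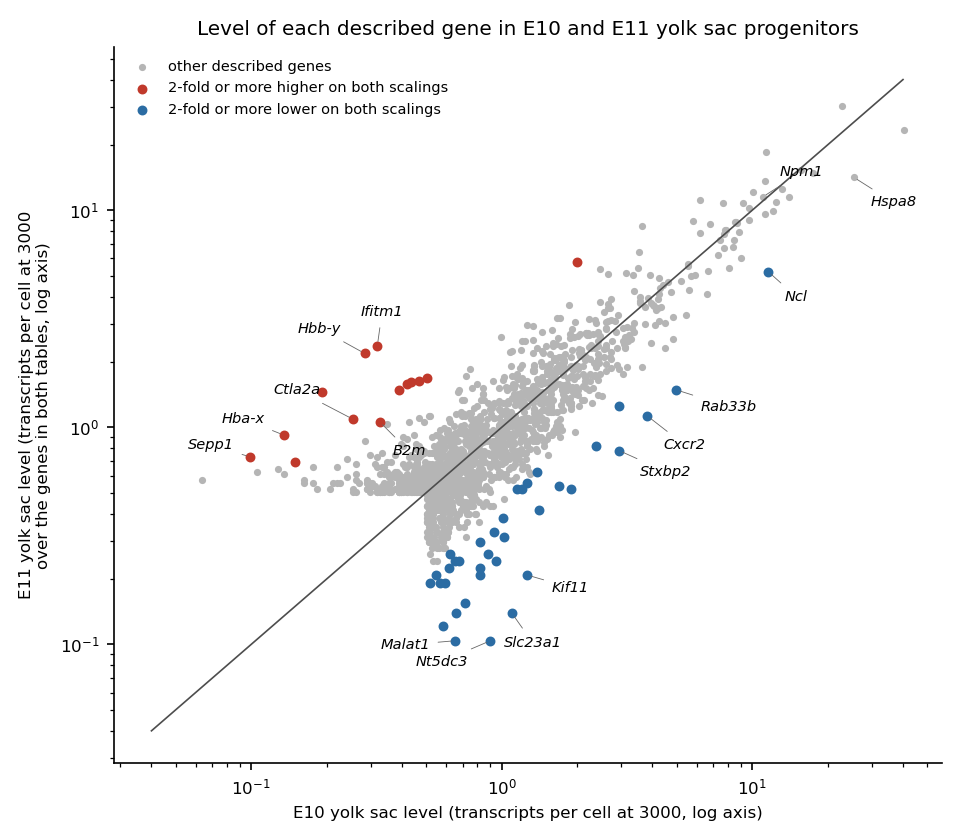
Level of each described gene in E10 (x axis) and E11 YS cells (y axis), in transcripts per cell at 3000 over the shared genes, on log axes. Red points are the 14 genes higher and blue points the 36 genes lower at E11 on both scales, and the line marks equal levels.

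*Hbb-y* and *Hba-x* rose in level and the third embryonic globin did not. *Hbb-y*, the beta-like globin of primitive red cells, had levels of 0.292 and 0.276 in the E10 sets and 1.64 at E11 (1.37 to 1.96), a log2 ratio of 2.18 (2.58). *Hba-x*, the embryonic alpha-like globin, had E10 levels of 0.154 and 0.118 and an E11 level of 0.691 (0.518 to 0.904), a log2 ratio of 1.75 (2.12). *Hbb-bh1*, the other embryonic beta-like globin, had levels of 0.745 at E10 and 0.457 at E11 and a log2 ratio of −0.60 (−0.25), short of the fold. The increase of *Hbb-y* was spread over cells rather than held by a few. *Hbb-y* was found in 31 of 141 E10 cells (22%, 15.5% to 29.7%), with at most 4 transcripts in a cell. At E11 it was found in 44 of 46 cells, and in 41 (89.1%, 76.4% to 96.4%) with the shared genes thinned to 3000, with at most 7 transcripts in a thinned cell. *Hba-x* was found in 17 of 141 E10 cells (12.1%) and, thinned in this way, in 22 of 46 E11 cells (47.8%). *Hbb-bh1* was found in 34 of 141 E10 cells (24.1%), with up to 16 transcripts in a cell, and in 25 of 46 E11 cells (22 after thinning, 47.8%), with at most 3. Its share of cells was thus larger at E11 while its mean was not, and 3 E10 cells held 16, 12 and 8 of its 105 transcripts. In haemogenic endothelial (HE) cells of the aorta, which are not red cells, *Hbb-y* was found in 21.4% of cells at E10 and, thinned, in 17.4% at E11. In c-kit+CD31+ cells of intra-aortic haematopoietic clusters (IAHCs), *Hbb-y* was found in 32.9% at E10 and, before thinning, in 4.98% at E11. In aortic cells in endothelial-to-haematopoietic transition (EHT) it was found in 1.57% of cells at E10 and 2.17% at E11 before thinning. The E10 YS share of *Hbb-y* was close to that of HE cells, above that of EHT cells and below that of IAHC cells, and the E11 YS share was above all of them. The adult genes were at or near 0: *Hba-a1* had 0 transcripts at both stages, *Hba-a2* had 1 and 0, *Hbb-b1* 1 and 2, and *Hbb-b2* 4 and 1. At this depth a cell that expresses such a gene weakly can show 0 transcripts. *Hbq1a* and *Hbq1b* also had 0 transcripts.

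The promoters of the embryonic globin genes above the fold are shown because both genes rose. They are 300 bases each around the start, from RefSeq on build GRCm38.p6. *Hbb-y* lies at chr7:103853158-103853457 on the minus strand and *Hba-x* at chr11:32276350-32276649 on the plus strand. Capitals mark the motifs searched, on both strands and with no overlap between matches: CCAAT, found in 37.4% of all 32851 promoter windows of this length, CACCC, found in 57.5%, AGATAA, found in 11.2%, and TATAA, found in 24.9%.
Hbb-y: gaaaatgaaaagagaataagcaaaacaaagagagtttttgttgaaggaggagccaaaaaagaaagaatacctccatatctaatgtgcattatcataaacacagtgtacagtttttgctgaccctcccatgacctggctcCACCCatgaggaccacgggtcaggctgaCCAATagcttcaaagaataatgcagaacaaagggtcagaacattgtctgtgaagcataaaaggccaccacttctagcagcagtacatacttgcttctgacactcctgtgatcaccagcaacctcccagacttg
Hba-x: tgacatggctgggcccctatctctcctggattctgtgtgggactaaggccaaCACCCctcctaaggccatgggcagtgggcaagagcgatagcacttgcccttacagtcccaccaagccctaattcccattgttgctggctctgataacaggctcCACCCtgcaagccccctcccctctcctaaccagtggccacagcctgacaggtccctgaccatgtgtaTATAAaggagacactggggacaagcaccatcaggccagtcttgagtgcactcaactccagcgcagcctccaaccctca
The *Hbb-y* window held 1 CCAAT and 1 CACCC, and the *Hba-x* window held 2 CACCC and 1 TATAA. A match is a description of letters, and binding was not measured.

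Beyond the globins, no described gene of the erythroid or haem synthesis lists passed the fold upward on either scale. Of the list of erythroid genes, 9 were described over the shared genes and none of them passed the fold on both scales, with a median log2 ratio of −0.85 (−0.12) against −0.46 (−0.04) for all genes. The erythroid regulators *Gata1* and *Klf1* had log2 ratios of −0.88 (−0.58) and −0.59 (−0.29). *Mt1*, a metallothionein gene active in erythroid cells, had levels of 1.71 and 0.678 and a log2 ratio of −1.22 (−0.85), past the fold on the first scale alone. *Car2*, which encodes carbonic anhydrase, had a log2 ratio of 0.60 (0.98). The mitochondrial haem synthesis gene *Tmem14c* had −0.85 (−0.47), and *Prdx2*, an antioxidant of red cells, −0.05 (0.34). *Alad*, an early enzyme gene of haem synthesis, had −0.97 (−0.66), and the ferritin genes *Ftl1* and *Fth1* −0.07 (0.34) and −0.39 (0.02). Of the 10 markers fixed for erythroid cells, 9 were in both tables. Their summed level was 2.09 at E10, with *Hbb-bh1* most abundant, and 3.86 at E11 (5.14 over the shared genes), with *Hbb-y* most abundant. *Hba-a1* was at 0 at both stages and *Alas2*, the rate-limiting enzyme of haem synthesis in red cells, at 0 at E11. At least 3 of these markers were found in 16.3% of E10 cells (10.6% to 23.5%) and in 47.8% of thinned E11 cells (32.9% to 63.1%). The panel includes the embryonic globins, so this share is not independent of their change. Of its 5 other markers, at least 3 were found in 3 of 141 E10 cells and 3 of 46 thinned E11 cells. These 5 had a summed level of 0.929 at E10 and 1.07 at E11, or 1.52 with the shared genes thinned to 3000. The part of adhering or lysed red cells in these values was not tested.

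Of the interferon and antigen presentation genes, *Ifitm1* and *B2m* were higher, and *Ifitm2* passed the fold over the shared genes alone. *H2-D1* and *H2-K1* were near E10 and *H2-T23* was below it. All 3 described members lay above E10 2-fold or more over the shared genes, and 2 of them on both scales, beside 3.0% and 1.02% of all described genes. Each reached the described level at E11 alone, so the filter favoured members above E10. *B2m*, the light chain of class I molecules, had levels of 0.326 and 0.796 and a log2 ratio of 1.07 (1.44). It was found in 39 of 141 E10 cells and in 27 of 46 thinned E11 cells. *Ifitm2*, an interferon-induced membrane protein gene, had 0.97 (1.34). For *Ifitm1*, a relative, the log2 ratio of 2.17 (2.57) rested on few cells, since 2 of the 46 held 52 and 45 of its 137 transcripts. The cell with 45 also held 10 transcripts of macrophage markers and 2 of progenitor markers, and the part of another cell type in this was not tested. Without the 2 highest cells of each stage it was 0.88 (1.23). The class I genes *H2-D1* and *H2-K1* had −0.27 (0.03) and −0.02 (0.30), and *H2-T23* had levels of 0.468 and 0.143 and a log2 ratio of −1.22 (−0.96), below the level at which genes were described. *Sepp1*, which encodes the selenium carrier selenoprotein P, was as uneven as *Ifitm1*. A single E11 cell held 26 of its 42 transcripts, and that cell also held 27 transcripts of endothelial markers. Its log2 ratio of 1.70 (2.06) was 0.76 (1.04) without the 2 highest cells of each stage.

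The remaining higher genes were spread over many cells. *Ctla2a*, a cysteine protease inhibitor gene, had levels of 0.255 and 0.822 and a log2 ratio of 1.38 (1.75). *Rasl2-9*, a retrogene of the Ran family, had 1.31 (1.70), *Marcksl1*, an actin-binding substrate of protein kinase C, 1.30 (1.69), and *Lrrc58* 1.22 (1.61). *Rasl2-9* shares most of its sequence with *Ran*, so transcripts may have been split between them, and *Ran* had a log2 ratio of −0.37 (0.04). The 2 E10 sets lay within 0.308 and 0.211 for *Ctla2a*, 0.415 and 0.421 for *Rasl2-9* and 0.446 and 0.487 for *Lrrc58*, well under the E11 level of each. Of 3 unnamed genes above the fold against each E10 set, *Gm10548* had 2.04 (2.42) and *Gm11517* 1.32 (1.70).

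**Figure D2:**
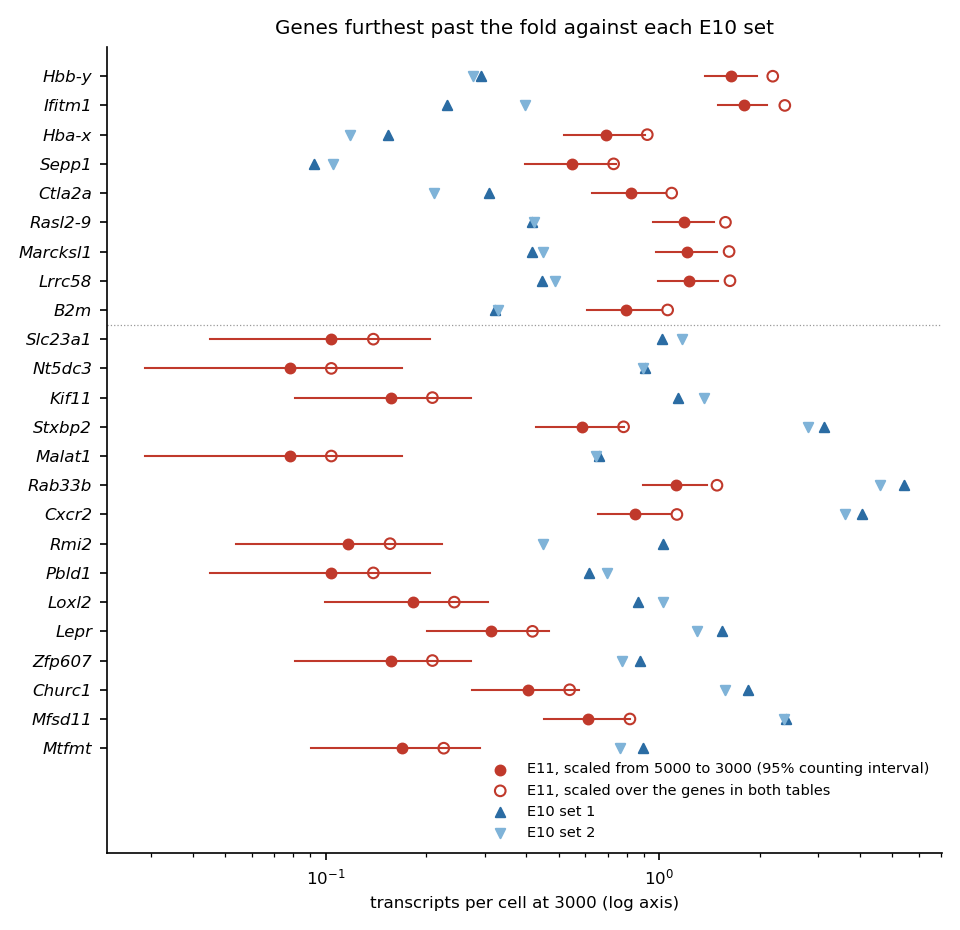
Levels of the 9 named genes higher against each E10 set and of the 15 furthest past the fold of the 79 below it from 5000 to 3000, on a log axis, in E10 set 1, E10 set 2 and E11 (filled red, 5000 to 3000, with its 95% counting interval; open red, over the shared genes). The genes were chosen for lying on the same side of E11 in both E10 sets.

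Among imprinted growth genes, *H19*, *Igf2* and *Gnas* were described on both scales and lay above the median of all genes, within the fold on the first scale. The 3 had a median log2 ratio of 0.59. Over the shared genes 2 of 5 described genes, *H19* and *Dlk1*, passed the fold upward, beside 3.0% of all genes. *H19*, a maternally expressed non-coding RNA of the fetus, had levels of 1.33 and 2.19 and a log2 ratio of 0.68 (1.08). It too was uneven, with 30 and 24 of 168 E11 transcripts in 2 cells, and had 0.39 on the first scale without the 2 highest cells of each stage. The cell with 30 held 18 endoderm and 7 endothelial marker transcripts and the cell with 24 held 27 endothelial ones, and the part of other cell types in this was not tested. *Igf2*, a fetal growth factor gene, had 0.59 (0.98), *Gnas*, which encodes a G protein subunit, 0.47 (0.87), and *Dlk1*, which reached the described level at E11 over the shared genes alone, 1.25 (1.59). Summed over the 23 listed genes, the level was 4.70 at E10 (4.34 to 5.07) and 7.53 at E11 (6.92 to 8.17). Cells spread widely, from 0 to 35 transcripts (median 3) at E10 and from 0 to 49 (median 7) among thinned E11 cells. The fetal programme genes *Hmga2*, *Igf2bp1*, *Igf2bp3* and *Lin28b*, which mark fetal progenitors, had log2 ratios of −0.12 (0.27), −0.67 (−0.30), −0.36 (−0.00) and −0.56 (−0.29), and none passed the fold.

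The described haematopoietic transcription factors, 7 to 9 of 33 listed, mostly lay below the median of all genes. The median log2 ratio was −1.09 over 7 described genes and −0.58 over the 9 described on the shared scale, beside −0.46 and −0.04 for all genes. *Myb*, required for definitive progenitors, had levels of 1.25 and 0.535 and a log2 ratio of −1.09 (−0.73). The leukaemia gene *Lyl1* had −1.10 (−0.75), *Zfpm1*, a partner of GATA1, −1.19 (−0.83), and the corepressor gene *Cbfa2t3* −1.14 (−0.81). These 4 passed the fold from 5000 to 3000 (8.98% of all genes did so in this direction), and 0 of the list passed it over the shared genes. *Lmo2* had −0.57 (−0.21) and *Gata2* −0.81 (−0.51). *Sfpi1*, which encodes the myeloid regulator PU.1, had 0.18 (0.53).

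Proliferation genes gave a mixed picture. *Kif11*, the motor that separates spindle poles, was lower at E11, with levels of 1.14 and 1.36 in the E10 sets and 0.157 at E11 (0.0809 to 0.273), a log2 ratio of −2.40 (−2.14). It was found in 88 of 141 E10 cells (62.4%, 53.9% to 70.4%) and in 6 of 46 thinned E11 cells (13.0%, 4.94% to 26.3%). *Cenpf*, a kinetochore protein gene, was lower as well, at −1.74 (−1.44), while *Ube2c*, which acts at mitotic exit, had −1.04 (−0.66). Other mitotic genes did not go with *Kif11*: *Top2a* had −0.90 (−0.52) and *Cks2* 0.10 (0.49). Over the shared genes, 2 of 18 described genes of G2 and mitosis and 1 of 19 of S phase passed the fold downward, beside 2.35% of all genes, with medians of −0.26 and −0.15 beside −0.04. The S phase gene below the fold was *Ung*, a uracil DNA glycosylase, at −1.29 (−1.01), and the replication helicase genes *Mcm5*, *Mcm6* and *Mcm7* had −0.43 (−0.05), −0.22 (0.17) and −0.58 (−0.20). *Dut* had −0.55 (−0.15). Of the G1 genes, *Cdk4* had 0.30 (0.69) and *Ccnd2* −0.62 (−0.27). Summed S phase transcripts per cell had medians of 23 at E10 and 22.5 among thinned E11 cells, and those of G2 and mitosis 20 and 17.5.

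Among abundant genes, *Ncl* was lower on both scales, and *Hspa8* passed the fold on the first scale alone. *Ncl*, which encodes nucleolin, was lower, with levels of 11.9 and 11.2 in the E10 sets and 3.91 at E11 and a log2 ratio of −1.54 (−1.13). A transcript was found in all 141 E10 cells and all 46 E11 cells, with medians of 12 and, after thinning, 5 transcripts per cell. Among 28 described genes of ribosome biogenesis, 6 passed the fold downward from 5000 to 3000 and 1, *Ncl*, over the shared genes, beside 8.98% and 2.35% of all genes, with a median of −0.70 (−0.29). The box C/D and H/ACA particle genes *Nop56*, *Nop58* and *Gar1* had −1.20 (−0.82), −1.27 (−0.92) and −1.05 (−0.68), and *Bop1* and *Ddx21* −1.05 (−0.71) and −1.09 (−0.72). *Npm1*, as abundant as *Ncl* at E10, had −0.34 (0.07), so the list did not move as a block. *Hspa8*, the constitutive heat shock cognate, was the most abundant of the heat shock list, with levels of 25.4 and 10.7 and a log2 ratio of −1.24 (−0.83). *Hsp90aa1* and *Hsp90ab1*, chaperone genes, had −0.97 (−0.57) and −0.65 (−0.24), within the fold. Of the list, 2 of 9 described genes, *Hspa8* and the less abundant *Hsph1*, passed the fold downward from 5000 to 3000 and 0 of 11 over the shared genes, beside 8.98% and 2.35% of all genes. The list's summed level was 70.9 at E10 (69.5 to 72.3) and 38.3 at E11 (36.9 to 39.7), or 51.0 over the shared genes. Per cell, its median was 71 transcripts in E10 set 1, 71.5 in E10 set 2 and 51 in thinned E11 cells, where the highest cell had 76. For ribosome biogenesis the medians were 80, 83 and 68.5. Immediate early genes, which respond to handling, summed to 1.94 at E10 and 2.78 at E11 (3.70 over the shared genes), with medians of 2 transcripts per cell at both stages and at most 18 and 33 in a cell. The part of handling in these values was not tested.

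**Figure D3:**
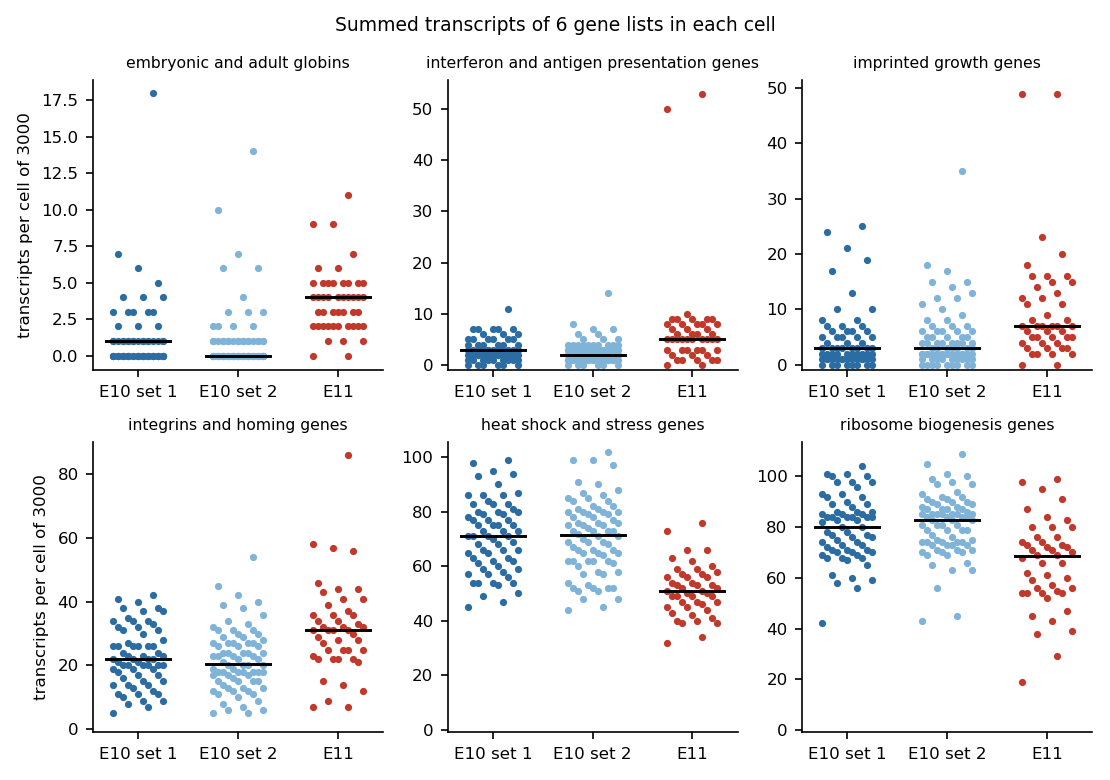
Summed transcripts of 6 gene lists in each cell of E10 set 1, E10 set 2 and E11 (shared genes thinned to 3000), with the median as a bar. The heat shock medians are 71, 71.5 and 51, and the globin medians 1, 0 and 4.

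The medians of the energy metabolism lists stayed near the median of all genes. Of 51 described respiratory chain genes, 3 passed the fold downward from 5000 to 3000 and 0 over the shared genes, beside 8.98% and 2.35% of all genes, with a median of −0.54 (−0.15). Those 3 were *Ndufa2* at −1.13 (−0.75), *Uqcr10* at −1.10 (−0.71) and *Cox7c* at −1.08 (−0.67), subunits of complexes I, III and IV. *Atp5b*, the most abundant of the list at E10, had −0.71 (−0.31). The glycolysis list had a median of −0.40 (−0.01), with *Gapdh* at −0.16 (0.25) and *Ldha* at −0.61 (−0.20). Of its 10 described genes, 2 passed the fold downward from 5000 to 3000 and 0 over the shared genes, beside the same shares of all genes. Those 2 were the hexokinase genes *Hk1* and *Hk2*, at −1.14 (−0.82) and −1.06 (−0.78). Splicing factor genes, with 28 described, had a median of −0.19 (0.21) and none past the fold. The DNA methylation genes *Dnmt1*, *Dnmt3b* and *Uhrf1* had −0.53 (−0.16), 0.13 (0.52) and −0.38 (−0.01).

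Genes of motility and adhesion lay slightly above the median. The 10 described genes of integrins and homing had a median of −0.05 (0.33), with 0 past the fold. *Tmsb10* and *Tmsb4x*, actin-sequestering thymosins, had 0.44 (0.85) and 0.09 (0.50), and *Coro1a*, a leukocyte actin regulator, 0.46 (0.86). *Rac2*, a GTPase of blood cells, had −0.36 (0.03). Per cell, the summed transcripts of this list had medians of 22 at E10 and 31 in thinned E11 cells.

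**Figure D4:**
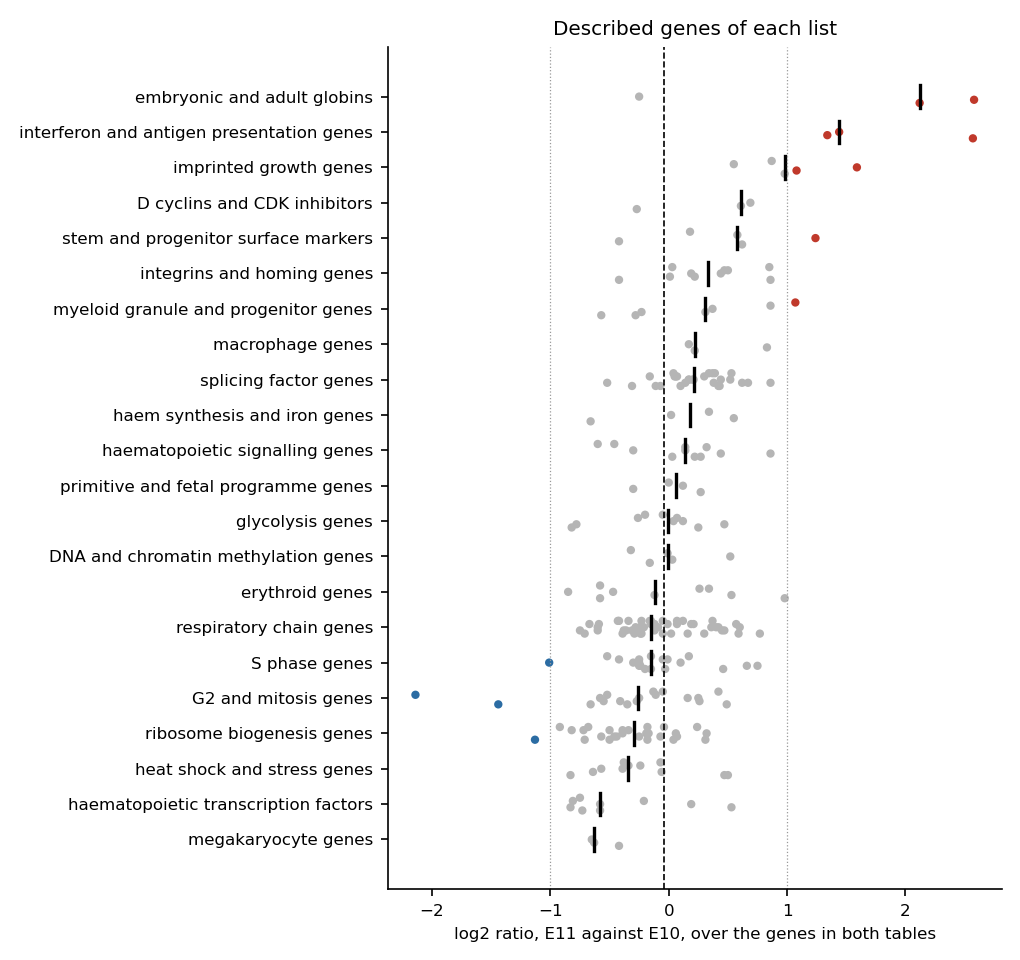
Log2 ratio of E11 against E10 over the shared genes for each described gene of 22 lists with at least 3 described genes. Bars are list medians, the dashed line the median of all genes (−0.04) and dotted lines the fold. The described *Hbb-y*, *Hba-x* and interferon genes reached that level at E11 alone, which favours values to the right.

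None of the described myeloid, megakaryocyte or macrophage genes passed the fold on both scales. Over the shared genes 1 of 7 described myeloid genes, *Alox5ap*, passed it upward at 1.07, beside 3.0% of all genes, and their median was 0.31. *Mpo* and *Prtn3*, granule proteins of myeloid progenitors, had −0.66 (−0.28) and −0.60 (−0.23), and the chaperone gene *Calr* −0.97 (−0.57). *Cd63*, *Srgn* and *Tyrobp* had −0.07 (0.31), 0.01 (0.37) and 0.47 (0.83). The macrophage receptor gene *Csf1r* was rare, with levels of 0.0426 and 0.0261. The complement genes *C1qa*, *C1qb* and *C1qc* and the macrophage genes *Ctss* and *Cd14* were at 0 at both stages, and 6 of 11 macrophage markers were detected at each, with summed levels of 1.09 and 1.17. *Fcer1g* was the most abundant of them at E10 and *Tyrobp* at E11. Megakaryocyte markers summed to 1.09 and 0.522 (0.695), with *Itgb3* most abundant. Lymphoid markers summed to 0 and 0.0261, with 7 of 7 at 0 at E10 and 5 of 7 at E11. Granulocyte and monocyte progenitor markers summed to 2.80 and 1.72 (2.29), with *Mpo* most abundant and *Elane* and *Ctsg* at 0 at both stages.

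Endothelial markers, and in few cells yolk sac endoderm markers, were more frequent at E11, while mesenchymal markers were rare at both stages. Endothelial markers summed to 0.986 at E10 and 1.72 at E11 (2.29), with *Egfl7* most abundant at both. At least 3 of the 9 were found in 2.13% of E10 cells (0.441% to 6.09%) and 17.4% of thinned E11 cells (7.82% to 31.4%). *Kdr* and *Cldn5* were at 0 at E10 and *Sox17* at both stages. Yolk sac endoderm markers summed to 0.0993 and 0.470 (0.626), with *Ttr* most abundant at E10 and *Afp* at E11, and *Apob*, *Amn* and *Cubn* at 0 at both stages. One E11 cell held 18 of the 36 endoderm marker transcripts, 30 of *H19* and 7 of endothelial markers. Mesenchymal markers summed to 0.0638 and 0.0913, with *Pdgfrb* most abundant and *Pdgfra* and *Col1a1* at 0 at both stages, and mast cell markers to 0.0922 and 0.0783, with *Cpa3* most abundant. The part of these cells or of their RNA in the higher genes was not tested. Cells of both sexes were found in each sample. *Xist* was found in 7 of 141 E10 cells and in 4 of 46 E11 cells, before and after thinning. Y-linked genes were found in 16 E10 cells and in 15 E11 cells, or 12 after thinning, and 0 cells held both.

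The genes lower at E11 by the widest margin were of mixed function. *Slc23a1*, a vitamin C transporter gene, fell furthest, with levels of 1.02 and 1.17 in the E10 sets and 0.104 at E11, a log2 ratio of −2.55 (−2.33). *Nt5dc3* had −2.49 (−2.29) and *Malat1*, an abundant nuclear non-coding RNA, −2.08 (−1.88), each with 6 transcripts left in 46 cells. The more abundant ones were *Rab33b*, a Golgi GTPase gene, at levels of 4.96 and 1.12 and −2.05 (−1.67), *Cxcr2*, at 3.81 and 0.848 and −2.04 (−1.67), *Stxbp2*, which acts in granule exocytosis, at 2.94 and 0.587 and −2.15 (−1.79), and *Mfsd11*, at 2.38 and 0.613 and −1.80 (−1.44). *Cxcr2* transcripts were found in 129 of 141 E10 cells and 27 of 46 thinned E11 cells, but also in 52.0% of E10 and 41.3% of thinned E11 HE cells of the aorta. *Lepr*, the leptin receptor gene, had −1.87 (−1.55), *Loxl2*, a lysyl oxidase gene, −1.89 (−1.61), *Churc1* −1.84 (−1.50), *Zfp607* −1.85 (−1.58), *Pbld1* −1.89 (−1.67) and *Mtfmt*, the mitochondrial formyltransferase gene, −1.78 (−1.50). *Rmi2*, a partner of the BLM helicase, had −1.91 (−1.67), but its E10 level differed between sets, at 1.03 and 0.447. Of the unnamed genes, 2 were lower on both scales: *A330032B11Rik* had −2.02 (−1.68) and *2500004C02Rik* −1.83 (−1.62).

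The same contrast of stages in the aorta shows which differences the YS cells shared. The nearest population is the c-kit+CD31+ IAHC cells, also wild-type C57BL/6, with 73 cells at E10 and 201 at E11. HE cells (98 and 46) and EHT cells (191 and 46) came from ICR embryos with reporter alleles at *Gfi1* and *Gfi1b*, and the column names of their E10 cells give E10.5 or late E10 where the sample labels give E10. All come from the same 2 tables as the YS cells, in which the *Rpl* and *Rps* genes took 22.5% of E11 transcripts in IAHC, 14% in HE and 18.9% in EHT cells, so only the shared scale is used here. On it, 18 (1.21%) of 1491 genes were above and 20 (1.34%) below the fold in IAHC cells, 75 (4.79%) and 49 (3.13%) of 1566 in HE cells, and 46 (3.12%) and 12 (0.814%) of 1474 in EHT cells.

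Much of the low side was shared with the IAHCs. Of the 28 genes lower in E11 YS cells against each E10 set, 10 (35.7%) were described and also below the fold in E11 IAHC cells, where they made up 50.0% of the genes below it, and 13 were below it when genes not described there were counted. The median of the 28 genes there was −0.90. *Slc23a1* had −4.40 in IAHC cells, *Churc1* −2.09, *Kif11* −2.06, *Loxl2* −1.96, *Cxcr2* −1.95 and *Lepr* −1.55. In HE cells 1 of the 28 was lower, with a median of 0.04, and in EHT cells 3, with a median of −0.37. On the high side, 6 of 36 genes were described and above the fold in IAHC cells (33.3% of the 18), *Rasl2-9* among them at 1.12. Since all E10 populations share a table and all E11 populations another, such shared differences cannot be told apart from differences between the tables.

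*Hbb-y* and *Hba-x* went opposite ways in YS and IAHC cells, and *Hbb-bh1* did not rise in either. In IAHC cells *Hbb-y* had a level of 0.918 at E10 (0.711 to 1.17) and 0.0418 at E11 (0.0228 to 0.0701), a log2 ratio of −2.73 over the shared genes, against 2.58 in the YS. *Hba-x* had 0.151 and 0.00299 (11 transcripts and 1), a log2 ratio of −1.27, and *Hbb-bh1* −2.05. *Hbb-y* and *Hba-x* were the only 2 genes past the fold in opposite directions in YS and IAHC cells, counting *Hba-x*, which was below the described level in the latter. In HE cells *Hbb-y* had levels of 0.306 (0.207 to 0.437) and 0.222 (0.129 to 0.355) and *Hba-x* 0.173 and 0.130, with overlapping intervals, and in EHT cells both were at or near 0 at both stages. *Ifitm1* had −0.44, *Ctla2a* −0.29, *Malat1* 0.39 and *Nt5dc3* −0.55 in IAHC cells, all within the fold there. Whether the changes in YS and IAHC cells differ was not tested, with 1 sample a group.

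**Figure D5:**
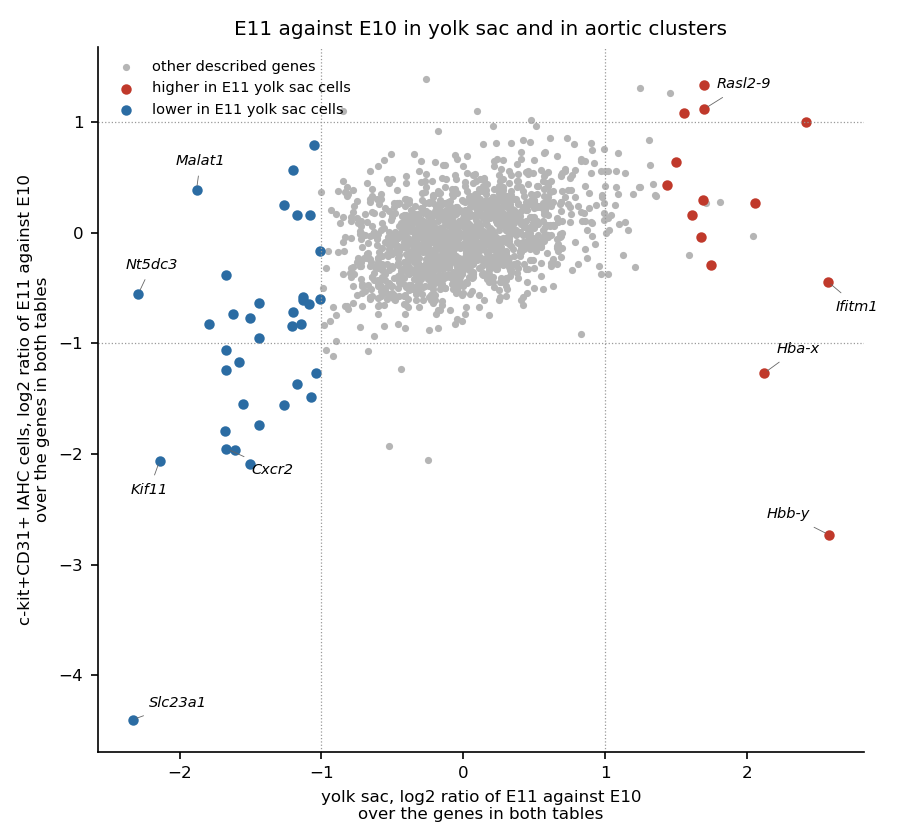
Log2 ratio of E11 against E10 over the shared genes in YS (x axis) and c-kit+CD31+ IAHC cells (y axis), with dotted lines at the fold. Red and blue points are genes higher and lower in E11 YS cells; *Hbb-y* and *Hba-x* lie at 2.58 and 2.12 in the YS and at −2.73 and −1.27 in IAHC cells.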

How the data were processed

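The values are estimated counts: transcripts per cell, from unique molecular identifiers, that the authors deposited after drawing each E10 cell down to 3000 and each E11 cell to 5000 transcripts and adding 0.1. The submitters' processing notes credit mapping to mm10 with BWA 0.6.2-r126. Here 0.1 was taken off, which left whole numbers, E11 was scaled to 3000, and levels, log2 ratios with a pseudocount of 0.1, list sums, marker counts and exact counting intervals were computed with Python 3.11.15, numpy 2.4.6, pandas 2.3.3, scipy 1.17.1 and matplotlib 3.10.9. Shares of cells used E11 cells thinned to 3000 with a fixed seed, unless given as before thinning or with the thinned value beside them. The samples hold 423000 E10 and 230000 E11 transcripts.

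Genes were described at a level of 0.5 or more in either sample. Genes are named if they were furthest past a 2-fold change against each E10 set, if they lie in 30 lists of genes, or if they differ in direction between yolk sac and aortic clusters. Members and lists were chosen with earlier results of these data known. Scaling over the shared genes was added after the E10 table was seen to lack the *Rpl* and *Rps* genes. Pseudocounts, floors, folds, scalings, single E10 sets and cell exclusions were tried as alternatives. The 279 columns of other populations were not used. No doublet caller was run, since cells were sorted singly into wells. Promoter windows are from RefSeq, GRCm38.p6, and 102 of 131 named genes matched one. One gene withheld for evaluation is not reported here.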

Additional observations from a re-analysis of the deposited data

Results flagged for a closer look

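With E11 scaled from 5000 to 3000, the log2 ratio of *Hbb-y*, E11 against E10, was 5.03 lower in c-kit+CD31+ cells of the intra-aortic clusters than in yolk sac progenitors (a difference of −5.03), and that of *Hba-x* differed by −3.04. They were singled out because they passed the 2-fold change in opposite directions in the 2 populations. The difference was not tested, with 1 sample a group.

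Genes found only in the E11 table, all of them with names that start with *Rpl* or *Rps* and most of them genes of ribosomal proteins, took 24.9% of E11 yolk sac transcripts. It was singled out because these values have no E10 counterpart and so were not compared. The effect on other genes is by construction: the E10 cells sum to 3000 transcripts without them.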

How the results depend on the processing

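Counts of genes past the fold changed over 1.5 times with some settings and less with others, and are given as higher and lower, then as higher and lower against each E10 set. From 5000 to 3000 they were 14 and 123, then 12 and 84. With a pseudocount of 0.5 they were 3 and 21, then 3 and 17, with a floor of 0.2, 32 and 231, then 22 and 147, and with no floor, 44 and 266, then 26 and 162. A fold of 1.5 gave 38 and 517, then 25 and 400, and a fold of 3 gave 5 and 19, then 5 and 17. Scaling by the median of ratios gave 74 and 30, then 49 and 25. The total without globin, ribosomal and mitochondrial genes gave 46 and 36, then 36 and 28, and the total over genes in both tables gave 46 and 36, then 36 and 28. Less changed were the counts with E11 thinned (17 and 147, then 14 and 105), against E10 set 1 alone (18 and 162) or set 2 alone (14 and 149), and without the 2 cells with most globin transcripts (14 and 127, then 12 and 80). The settings over fewer genes move the split by construction, because the *Rpl* and *Rps* genes are missing from the E10 table.

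Over the shared genes, a pseudocount of 0.5 gave 14 and 11, then 12 and 10, a floor of 0.2 gave 105 and 80, then 76 and 57, and no floor 133 and 99, then 99 and 64. A fold of 1.5 gave 154 and 166, then 108 and 113, and a fold of 3 gave 15 and 12, then 8 and 6. E10 set 1 alone gave 64 and 43, set 2 alone 45 and 37, and leaving out the cells with most globin 50 and 35, then 35 and 27. From all genes to shared genes, the counts went from 4 and 49 to 18 and 20 in IAHC cells, from 42 and 90 to 75 and 49 in HE cells and from 24 and 48 to 46 and 12 in EHT cells.

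Of 128 log2 ratios of named genes, 49 of them past the fold, 46 were still past it with E11 thinned, 30 by the median of ratios, 31 over the shared genes, 46 against E10 set 1 alone, 46 against set 2 alone and 47 without the 2 highest cells of each stage, and 0 of the 49 changed sign. *Ifitm1* and *Sepp1* were those no longer past it without the highest cells. Leaving out cells with 4 or more of 7 macrophage markers removed 0 cells by construction, since *C1qa*, *C1qb*, *C1qc* and *Ctss* had 0 transcripts, so it shows nothing about such cells. Of 128 shares of cells, 51 moved without thinning.

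No paired analysis was possible because each stage is 1 sample, with no embryo, litter or day shared or named. With 1 sample a side, variation between embryos, sorts and libraries was not measured, and the 2 E10 sets are not stated to be independent. Stage and table cannot be told apart. The number of embryos in each pool was not given. Totals fixed by the authors hide differences in RNA content between cells, and genes at low levels rest on few transcripts. Transcripts are not protein, and no effect on cell behaviour was measured here.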
